A study of Mus musculus with 2 samples.

Results

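The BCL2 family genes analysed here were 10 genes that decide between survival and mitochondrial cell death: the pro-survival genes Bcl2, Bcl2l1, Mcl1, Bcl2a1b and Bcl2a1d, the effectors Bax and Bak1, and the BH3-only genes Bcl2l11, Bbc3 and Pmaip1. They were chosen by symbol, through the Ensembl identifier of each gene, among the 53801 genes of the count files, and all 10 were found and counted. The samples were 2 libraries of microglia sorted from sham-operated mice, here called library 1 and library 2, each from the left hemisphere of 1 mouse. The mice were hemizygous Cx3cr1(CreER/wt) animals on a C57BL/6 background, labelled as males of 8 to 10 weeks. A tamoxifen-inducible Cre recombinase took the place of a single Cx3cr1 allele, so it was made wherever Cx3cr1 is active, and both mice lacked that copy of the gene. Both received tamoxifen at 75 mg/kg per day for 4 days, had sham surgery 14 days after the initial dose, and gave cells 3 days after surgery. The sample titles name sham surgery while the treatment field reads "none", and the study's methods give an older age range and both sexes. Cells were sorted as CD11c–Ly6G–CD11b+CD45low. The libraries of the stroke arm were not analysed here, so the data describe a baseline and its spread between 2 mice, with no test of a condition.

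Mitochondrial apoptosis is set by contacts among BCL2 family proteins at the outer mitochondrial membrane. BAX and BAK open pores in that membrane and release cytochrome c, the pro-survival proteins hold them and the BH3-only proteins in check, and the BH3-only proteins carry stress signals that free or activate BAX and BAK. Each pro-survival protein binds its own selection of BH3-only partners: NOXA, the product of Pmaip1, pairs mainly with MCL1 and A1, while BIM and PUMA, the products of Bcl2l11 and Bbc3, bind all of them. Microglia are long-lived brain macrophages that renew slowly and depend on survival signals through the CSF1 receptor. Much of this family's control lies in protein turnover and binding, which transcript counts do not measure.

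Library 1 held 23381026 counts on genes and library 2 held 41142609, and 14063 and 15118 genes had at least 10 counts. Levels are given as CPM, the count over the library's total times 1000000. For a gene with no counts, the limit was set at 3 counts, which is 0.128 CPM in library 1, and 0.0729 CPM in the deeper library 2. Floors and intervals cover counting error only, since amplified reads are not independent molecules. The 9 microglia markers, Tmem119, P2ry12 and Fcrls among them, were all present and summed to 3.16% of counts in library 1 and 3.45% in library 2. Library 2 stood apart in its neutrophil transcripts despite the exclusion of Ly6G: 10 immature neutrophil markers summed to 2112 CPM in library 1 and 34088 CPM here, and 9 mature markers to 3501 and 31567 CPM. Monocyte markers were at 276 and 611 CPM, and border macrophage markers at 642.5 and 281 CPM. These are bulk sorted cells, so fewer cells of a type and less RNA per cell cannot be told apart. Over the 13455 genes that passed edgeR's filter on low counts, the spread between the mice was a biological coefficient of variation of 0.479 (common dispersion after TMM scaling).

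Levels were compared between genes as CPM per kilobase of merged exons, since long transcripts collect more reads. On this scale Bcl2l1 and Mcl1 led the 10 genes with means of 41.7 ± 18.5 and 41.4 ± 28.4 (SD, n = 2 libraries). Next were Bax at 28.8 ± 2.82, Bcl2a1b at 19.9 ± 2.98 and Bcl2a1d at 11.9 ± 1.47. Bbc3 at 10.1 ± 7.10, Pmaip1 at 8.00 ± 2.78 and Bcl2l11 at 4.44 ± 1.97 stood in the middle, and Bcl2 at 0.873 ± 0.634 and Bak1 at 0.545 ± 0.385 were lowest. Among the 13439 genes that reached 10 counts in each library, here called counted genes, the median was 3.85 CPM per kilobase. Bcl2l1 stood at percentile 91.0 of the mean levels, and Bak1 at percentile 14.4. Of the 9 pairs of neighbours in this order, 5 had ranges that overlapped between the libraries: Bcl2l1 and Mcl1, Mcl1 and Bax, Bcl2a1d and Bbc3, Bbc3 and Pmaip1, and Bcl2 and Bak1. Neighbours whose ranges did not overlap were Bax above Bcl2a1b, Bcl2a1b above Bcl2a1d, Pmaip1 above Bcl2l11, and Bcl2l11 above Bcl2.

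**Figure D1:**
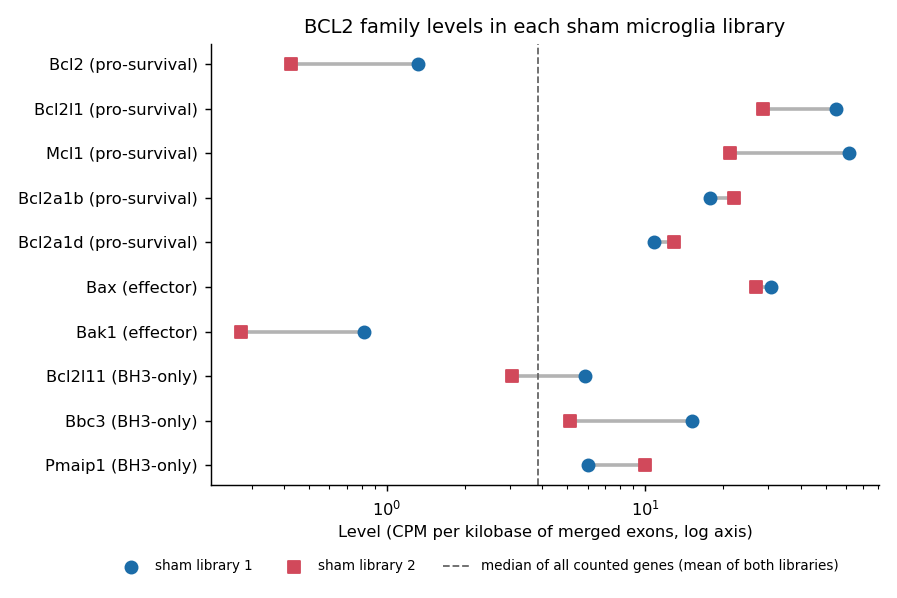
Level of each BCL2 family gene in CPM per kilobase of merged exons (log axis), with library 1 as circles, library 2 as squares and a grey bar joining them; the dashed line is the median of all counted genes at 3.85. Bcl2 and Bak1 lie below the median in both libraries, Bcl2l11 lies on either side of it, and the other 7 genes lie above it.

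Bcl2l1 encodes BCL-XL, the pro-survival protein best known for keeping neurons and platelets alive (chromosome 2 of GRCm38, 152780668 to 152831728, minus strand). Library 1 gave 5872 counts and library 2 gave 5393, or 251 and 131 CPM. Its level per kilobase was 54.8 in library 1 and 28.6 in library 2, second and first of the 10 genes in turn. No 75-base stretch of its transcripts, the length of a read here, was found in a transcript of another gene.

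Mcl1 encodes a short-lived pro-survival protein that many myeloid cells need from day to day (chromosome 3, 95658788 to 95663176, plus strand). It had 4919 counts in library 1 and 3000 in library 2, although library 2 was the deeper one. That gave 210.4 and 72.9 CPM, and 61.6 and 21.3 CPM per kilobase. Mcl1 was the highest of the 10 genes in library 1 and the fourth in library 2, below Bcl2l1, Bax and Bcl2a1b. Its exons overlap no other annotated gene, so its counts are not shared.

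Bcl2a1b and Bcl2a1d are copies of the A1 gene, whose product is a pro-survival protein of blood and immune cells induced by NF-kB, and which is also known from neutrophils. Both lie on chromosome 9, Bcl2a1b at 89199209 to 89207827 on the plus strand and Bcl2a1d at 88723285 to 88731914 on the minus strand. Their copy Bcl2a1a, at 88956900 to 88962419 on the plus strand, is not among the 10 genes but shares reads with them. Little separates the copies, with 12 positions over 519 coding bases at which the 3 are not all the same. The start of the coding sequence is shown because no other 75 coding bases of exon 1 held more of these positions. The lines below give coding bases 1 to 75 from GRCm38, 5′ to 3′ on the strand of each gene, with capitals at the 6 positions where the 3 copies are not all the same. They are Bcl2a1a at chr9:88957051-88957125, Bcl2a1b at chr9:89199360-89199434 and Bcl2a1d, minus strand, at chr9:88731645-88731719.
Bcl2a1a: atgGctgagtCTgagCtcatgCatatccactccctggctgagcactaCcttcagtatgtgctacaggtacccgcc
Bcl2a1b: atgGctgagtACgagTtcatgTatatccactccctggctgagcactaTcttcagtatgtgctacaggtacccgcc
Bcl2a1d: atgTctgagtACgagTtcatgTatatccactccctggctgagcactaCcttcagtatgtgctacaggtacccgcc
Coding bases 95 to 169 are the same in all 3 copies, and a 75-base read from there cannot be given to any of them. They are shown as in Bcl2a1b, at chr9:89199454-89199528.
Shared stretch: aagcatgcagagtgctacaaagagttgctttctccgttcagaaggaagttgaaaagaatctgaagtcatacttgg

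Over 519 coding bases, Bcl2a1b and Bcl2a1d were 98.8% identical with 6 differences. Of their 75-base stretches over whole transcripts, 68.4% of 743 in Bcl2a1b and 67.6% of 789 in Bcl2a1d also occurred in another gene. Bcl2a1b further shares 401 of its 817 exon bases, on the same strand, with the annotated gene Gm29094, which had 0 counts in both libraries. Reads in such bases are left uncounted in the usual mode of HTSeq, and the mode used is not given in the sources used here. The counts of each copy are therefore uncertain, and the levels below are those of reads that could be placed.

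Bcl2a1b had 340 and 740 counts in libraries 1 and 2, or 14.5 and 18.0 CPM. Bcl2a1d had 219 and 459 counts, or 9.37 and 11.2 CPM. Bcl2a1a had 469 and 1057 counts, or 20.1 and 25.7 CPM. All 3 copies were slightly higher in library 2, and their sum went from 43.97 to 54.83 CPM. The ratio of Bcl2a1d to Bcl2a1b per kilobase, 0.610 and 0.587, was nearly the same in both libraries. Over all its exon bases Bcl2a1b stood at 17.8 and 22.0 CPM per kilobase, and if only the 416 bases that no other annotated gene covers gave its counts, at 35.0 and 43.2. On that basis Bax stood at 35.1 and 30.6, so the order of Bax and Bcl2a1b depends on how shared bases are treated.

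The copies also share the DNA before their annotated starts, shown after both genes were seen to be a little higher in library 2. These letters come from the reference genome and are the same for both libraries, so they cannot describe a difference between them. The lines give the 150 bases upstream of the start of each member in GRCm38, Bcl2a1b at chr9:89199059-89199208 and Bcl2a1d, minus strand, at chr9:88731915-88732064, with capitals marking GAGGAAG, the core letters bound by PU.1 and related ETS factors of myeloid cells.
Bcl2a1b: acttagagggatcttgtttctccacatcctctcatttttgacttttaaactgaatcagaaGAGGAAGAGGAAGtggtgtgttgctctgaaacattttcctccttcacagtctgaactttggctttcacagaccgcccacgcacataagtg
Bcl2a1d: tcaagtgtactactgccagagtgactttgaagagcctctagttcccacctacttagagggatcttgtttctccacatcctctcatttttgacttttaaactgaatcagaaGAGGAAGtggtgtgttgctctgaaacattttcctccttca
Bcl2a1b holds 2 overlapping matches and Bcl2a1d holds 1. On either strand, GAGGAAG was found in the RefSeq promoter windows (GRCm38, 250 bases before to 50 after the start) of Bcl2a1a, Bcl2a1b and Bcl2a1d and in 13.6% of all 32851 such windows. The letters TGACTCA of AP-1, TGACGTCA of CREB factors and CACGTG of E-boxes, and the kappaB motif by name, were in none of the 3 windows, against 5.20%, 1.79%, 7.15% and 8.46% of all windows. A match describes letters only, and binding was not measured.

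Bcl2, the founding gene of the family, encodes a pro-survival protein prominent in lymphocytes (chromosome 1, 106538178 to 106714274, minus strand). It had 283 and 160 counts in libraries 1 and 2, or 12.1 and 3.89 CPM. Its merged exons of 9157 bases are the longest of the 10 genes, and per kilobase it reached 1.32 and 0.425. Bcl2l1 was 41.4 times the level of Bcl2 per kilobase in library 1 and 67.3 times in library 2. Of its exon bases, 6.09% overlap D630008O14Rik on the other strand, which had 7 counts in library 1 and 0 in library 2.

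Among the effectors, Bax was high and Bak1 low. Bax, whose product moves from the cytosol to mitochondria in stressed cells (chromosome 7, 45461697 to 45466898, minus strand), had 1136 and 1740 counts in libraries 1 and 2, or 48.6 and 42.3 CPM. Bak1, whose product sits in the mitochondrial membrane and is held there by MCL1 and BCL-XL (chromosome 17, 27019810 to 27029009, minus strand), had 46 and 27 counts, or 1.97 CPM (95% exact Poisson interval 1.44 to 2.62) and 0.656 CPM (0.432 to 0.955). The intervals of Bak1 did not overlap. Per kilobase, Bax was 37.7 times as high as Bak1 in library 1 and 98.4 times in library 2. Bax lay above Bak1 in both mice, by far more than either gene varied between them. Of the exon bases of Bak1, 25.5% overlap Ggnbp1 on the other strand, and 12.2% of those of Bax overlap Gm45808 on the same strand, which had 0 counts in both libraries. Had all its counts come from exon bases that no other gene covers, Bak1 would stand at 1.10 and 0.366 CPM per kilobase.

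The BH3-only genes lay between these extremes. Bcl2l11, which encodes BIM, a sensor of lost growth factor signals (chromosome 2, 128126038 to 128162547, plus strand), had 1094 and 1007 counts in libraries 1 and 2, or 46.8 and 24.5 CPM. Over its 8029 exon bases that was 5.83 and 3.05 CPM per kilobase. Bbc3, which encodes PUMA, a target of p53 (chromosome 7, 16308393 to 16318205, plus strand), had 753 and 448 counts, or 32.2 and 10.9 CPM, and 15.2 and 5.13 CPM per kilobase. Pmaip1, which encodes NOXA, another target of p53 (chromosome 18, 66458604 to 66465550, plus strand), had 385 and 1120 counts, or 16.5 and 27.2 CPM, and 6.03 and 9.96 CPM per kilobase. Bbc3 was the higher of the p53 targets in library 1 and Pmaip1 in library 2. None of these 3 genes shares exon bases or 75-base stretches with another gene.

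The ratio of library 2 to library 1 was next set beside that of all counted genes. Of the 10 genes, 4 differed by more than 2-fold, against 31.7% of counted genes. All 4, Bcl2, Mcl1, Bak1 and Bbc3, were lower in library 2, where 25.9% of counted genes were more than 2-fold lower. None was more than 2-fold higher, against 5.74% of counted genes. At 4 of 10, the family's count was near the background, and it is no result about these genes. The median log2 ratio was −0.94 over the 10 genes and −0.26 over all counted genes, 7 of the 10 being lower in library 2.

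In library 2, Bcl2 was 3.11-fold lower, with a log2 ratio of −1.64 (95% counting interval −1.93 to −1.35). Mcl1 was 2.89-fold lower (log2 −1.53, −1.59 to −1.46). Bbc3 was 2.96-fold lower (log2 −1.56, −1.74 to −1.39), and Bak1 3.00-fold lower (log2 −1.58, −2.33 to −0.87). These 4 genes take part on both sides of the family, 2 being pro-survival and 2 pro-death. Bcl2l1 and Bcl2l11 were just short of the threshold, 1.92-fold and 1.91-fold lower with log2 ratios of −0.94 and −0.93. Pmaip1 was 1.65-fold higher (log2 0.73, 0.56 to 0.90), Bcl2a1b was higher by a log2 ratio of 0.31 and Bcl2a1d by 0.25. Bax differed least, with a log2 ratio of −0.20 (−0.31 to −0.09) that became 0.05 with TMM scaling and 0.07 with DESeq2 size factors, so its direction depended on scaling.

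**Figure D2:**
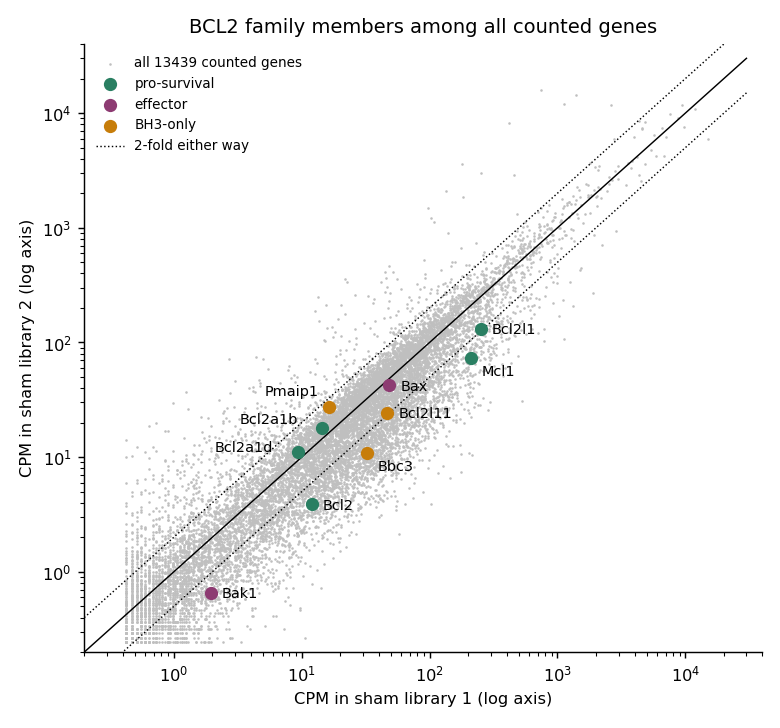
CPM in library 1 against CPM in library 2 (log axes) for all 13439 counted genes in grey and the 10 family genes in colour by role; the solid line marks equal levels and the dotted lines a 2-fold difference. Bcl2, Mcl1, Bak1 and Bbc3 lie below the lower dotted line, inside the broad cloud of other genes on that side.

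TMM scaling raised every log2 ratio by 0.25 and DESeq2 size factors raised every one by 0.27, which took the median of all counted genes to −0.01 and 0.01. Relative to the median of counted genes, Bcl2 stood at −1.38 on the log2 scale, Bak1 at −1.32, Bbc3 at −1.30 and Mcl1 at −1.27. Bcl2l1 stood at −0.68 and Bcl2l11 at −0.67, Bax at 0.06, Bcl2a1d at 0.52, Bcl2a1b at 0.57 and Pmaip1 at 0.99. Against the median, then, the A1 genes, Bax and Pmaip1 stood higher in library 2 and the other 6 lower, and only Bax had the opposite sign by CPM.

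The longest transcripts of the 10 genes run from 817 bases in Bcl2a1b to 7191 in Bcl2. Each gene was therefore also set beside the counted genes of like GC content and transcript length, a comparison chosen after seeing the data. The median log2 ratio of genes like Bcl2l11 was −0.99, which left it a difference of 0.05. For genes like Bcl2 it was −1.01, which left −0.63. Genes like Mcl1, Bak1 and Bbc3 had medians of −0.30, −0.12 and −0.18, and these 3 members stayed more than 2-fold lower at −1.22, −1.46 and −1.39. After this adjustment 22.4% of all counted genes were past 2-fold either way, 1303 of the 13439 higher and 1705 lower. Bcl2l1 went from −0.94 to −0.82 and Pmaip1 from 0.73 to 0.51.

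**Figure D3:**
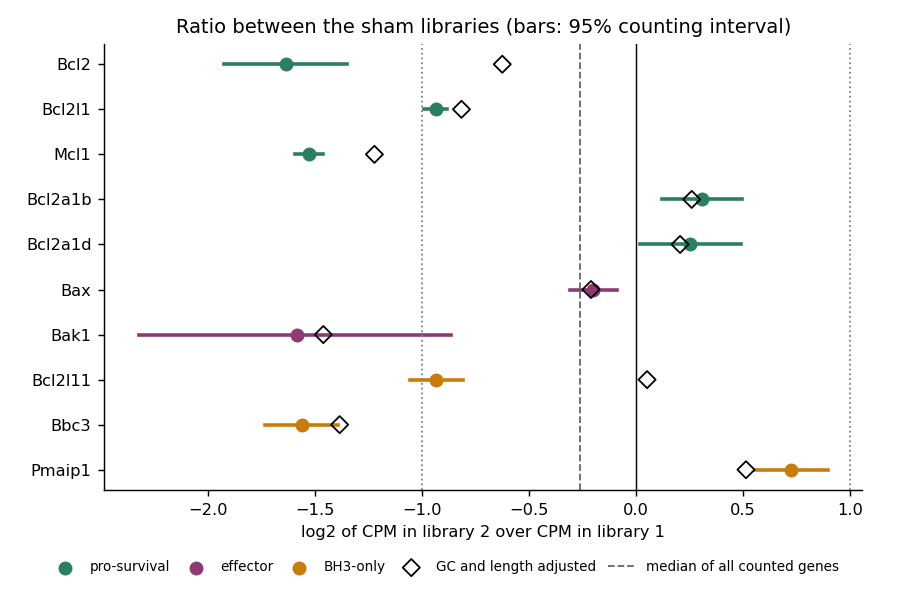
log2 of CPM in library 2 over CPM in library 1 for the 10 genes, as filled circles coloured by role with 95% counting intervals, and after adjustment for GC content and length as open diamonds; the dashed line is the median of counted genes at −0.26 and the dotted lines mark 2-fold. Adjustment moves Bcl2l11 from −0.93 to 0.05 and Bcl2 from −1.64 to −0.63, and leaves Mcl1, Bak1 and Bbc3 below −1.

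The balance between the sides was taken as the summed level per kilobase of the 5 pro-survival genes over that of the 5 pro-death genes. The pro-survival sum was 146 in library 1 and 85.3 in library 2, and the pro-death sum was 58.7 and 45.3. Pro-survival transcripts exceeded pro-death transcripts 2.49-fold in library 1 and 1.88-fold in library 2, a mean of 2.19 ± 0.431 (SD, n = 2). Both sums per kilobase were lower in library 2, the pro-survival sum 1.72-fold and the pro-death sum 1.30-fold. By summed CPM without length scaling, the folds were 2.10 and 1.38. The balance depended on a few genes: without Mcl1 it was 1.44 and 1.41, and without Bcl2a1b and Bcl2a1d it was 2.01 and 1.11. With Bcl2a1a, Bid, Bad, Bmf and the other listed pro-survival, effector and BH3-only genes added, it came to 1.35 and 1.02, so a balance near 1 or above 2 depends on which genes are listed.

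The make-up of each side differed between the mice. In library 1 Mcl1 gave 42.1% of the pro-survival sum and Bcl2l1 37.4%, with 12.2% from Bcl2a1b and 7.42% from Bcl2a1d. In library 2 the shares were 25.0% for Mcl1, 33.5% for Bcl2l1, 25.8% for Bcl2a1b and 15.2% for Bcl2a1d. Per kilobase, Bcl2a1b and Bcl2a1d together stood at 28.7 in library 1 and 34.9 in library 2, or 1.22-fold higher. The whole pro-survival sum was 1.72-fold lower in library 2, so the share of the A1 genes rose by more than their level. Library 2 was also the library with more neutrophil transcripts, and the part of those transcripts in this share was not tested. Bcl2 never passed 1% of the sum, at 0.904% and 0.498%. On the pro-death side Bax gave 52.6% and 59.3%, Bbc3 25.9% and 11.3%, Pmaip1 10.3% and 22.0%, Bcl2l11 9.93% and 6.74%, and Bak1 1.39% and 0.603%.

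**Figure D4:**
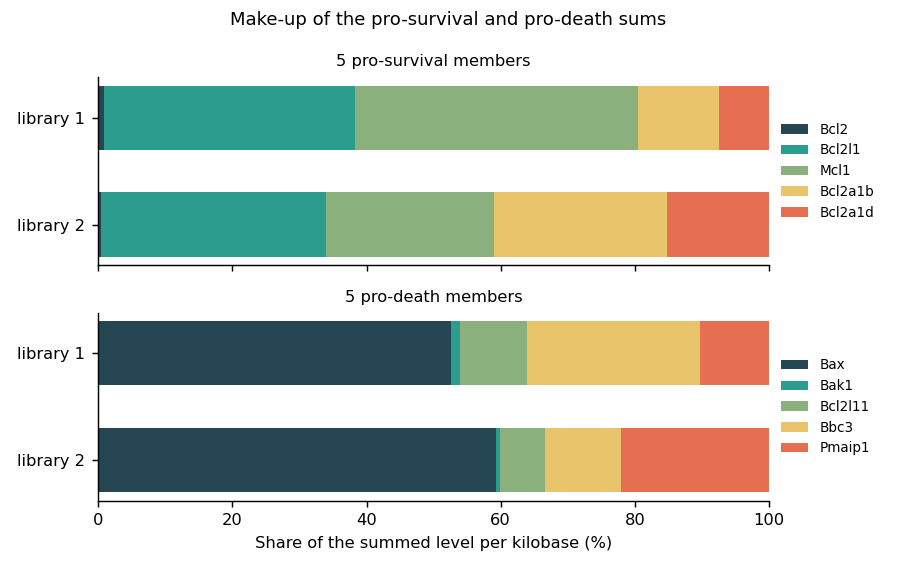
Share (%) of each gene in the summed level per kilobase of the 5 pro-survival genes (upper panel) and the 5 pro-death genes (lower panel), with a bar for each library. From library 1 to library 2, Mcl1 goes from 42.1% to 25.0% and Bbc3 from 25.9% to 11.3%, while Bcl2a1b goes from 12.2% to 25.8% and Pmaip1 from 10.3% to 22.0%.

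Ratios between single genes, most of them of proteins that bind each other, varied to different degrees. Mcl1 was 10.2 times the level of Pmaip1, its partner, in library 1 and 2.14 times in library 2. It was 10.6 and 7.0 times the level of Bcl2l11, and 75.3 and 78.2 times that of Bak1, whose 46 and 27 counts leave that ratio imprecise. Mcl1 against Bax went from 2.00 to 0.795, and Mcl1 against Bcl2l1 from 1.12 to 0.746. The order within these last pairs was therefore reversed between the libraries.

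The other family genes were measured in the same way. Of 16 listed, 11 were counted, 2 of them (Bcl2l2 and Bmf) were more than 2-fold lower in library 2 and none was more than 2-fold higher, against 25.9% and 5.74% of counted genes. Their median log2 ratio was 0.07, where that of all counted genes was −0.26. Bid, whose product is cut by caspase-8 and links death receptors to mitochondria, had 3439 and 6363 counts and 41.4 and 43.6 CPM per kilobase, inside the range of Bcl2l1. Its level differed little between the mice, with a log2 ratio of 0.07. Bad, which growth factor kinases keep inactive, had 14.6 and 21.3 CPM per kilobase, and Bik, a protein of the endoplasmic reticulum, had 62 and 103 counts. Bmf, a BH3-only gene tied to the cytoskeleton, had 10.3 and 3.15 CPM per kilobase, a log2 ratio of −1.70 where genes of like GC content and length had a median of −1.54. Hrk, a BH3-only gene of neurons, had 0 counts in both libraries.

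Among the other pro-survival genes, Bcl2l2, which encodes BCL-W, had 22 and 17 counts and a log2 ratio of −1.19 that adjustment for GC content and length took to −0.35. Bcl2l10 had 0 counts in both libraries and Bcl2a1c had 1 and 3. Bok, the other effector gene, had 0 counts in library 1 and 20 in library 2. The remaining BCL2-like genes are not settled members of either side. Bnip3l and Bnip3, receptors for the removal of mitochondria, had 32.3 and 57.0 and 11.9 and 15.5 CPM per kilobase, and 16.9% and 34.4% of their 75-base stretches occur in other genes, pseudogenes among them. Bcl2l13, another such receptor, had 864 and 933 counts. Bcl2l12 had 95 and 134 counts, Bcl2l14 had 12 and 36, and Bcl2l15 had 0 and 1. Bid and Bcl2l13 overlap at their ends on opposite strands, over 17.7% of the exon bases of Bid.

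The pathway around the family was described by 27 further genes in 5 lists, of which 26 were counted. Together, 1 was more than 2-fold higher in library 2 and 6 were more than 2-fold lower, against 5.74% and 25.9% of counted genes. At 26.9% past 2-fold either way, where all counted genes gave 31.7%, the count is no result about the pathway. The median log2 ratio was 0.07, against −0.26 for all counted genes. By CPM, none of the 8 genes of the apoptosome and its caspases passed 2-fold, against 31.7% of counted genes. Casp6, which encodes an executioner caspase, came nearest on the higher side with a log2 ratio of 0.77, and it was past 2-fold with TMM or DESeq2 scaling and, at 1.23, after adjustment for GC content and length. Cycs, which encodes cytochrome c, was highest there at 14.6 and 16.8 CPM per kilobase, then Htra2, a protease released with it, at 11.4 and 12.1. Apaf1, the scaffold of the apoptosome, had a log2 ratio of −0.79, the farthest from 0 in this list by CPM, but its adjusted value was 0.22.

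The inhibitor of apoptosis genes held the pathway gene that was more than 2-fold higher in library 2 by CPM. Birc5, which encodes survivin and is made by dividing cells, had 57 counts in library 1 and 823 in library 2, a log2 ratio of 3.04. Birc3 was the highest of this list at 13.9 and 14.3 CPM per kilobase, followed by Birc2 at 6.28 and 6.11, both ubiquitin ligases of the TNF pathway with log2 ratios of 0.04 and −0.04. Birc6, a very large ubiquitin ligase, was lower in library 2 with a log2 ratio of −1.81, or −0.80 after adjustment for GC content and length. Among the inducers of BH3-only genes, Trp53, which encodes p53, had 24.2 and 29.6 CPM per kilobase and Ddit3, the stress factor CHOP, had 14.2 and 19.8. Foxo3, which drives Bcl2l11 when growth factors are lost, had a log2 ratio of −1.05, which adjustment for GC content and length turned to 0.38, and it was within 2-fold with TMM or DESeq2 scaling. Trp73 had 5 and 1 counts. Trp53 had a log2 ratio of 0.29, and the p53 targets Bbc3 and Pmaip1 had −1.56 and 0.73.

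Of 4 genes that set the stability of the MCL1 protein, 3 were more than 2-fold lower in library 2, against 25.9% of counted genes. After adjustment for GC content and length 1 was, where 1705 of the 13439 counted genes were. Usp9x, which removes ubiquitin from MCL1, had a log2 ratio of −1.89, and the ligases Huwe1 and Fbxw7 had −1.57 and −1.13. Btrc, also a ligase, had 0.17 and was the highest of the list at 2.14 and 2.40 CPM per kilobase, ahead of Fbxw7 at 2.14 and 0.980. Counted genes of like GC content and length had medians of −0.55 for Usp9x, −1.07 for Huwe1 and −0.62 for Fbxw7, and after subtraction Usp9x was the gene past 2-fold, at −1.35. Among partners in the membranes of mitochondria and the endoplasmic reticulum, Bcap31, a substrate of caspase-8, had 273 and 329 CPM per kilobase. Tmbim6, or BAX inhibitor 1, had 157 and 52.5, a log2 ratio of −1.58. Vdac2, which anchors BAK in the outer membrane, had a log2 ratio of 0.21, where Bak1 had −1.58.

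With TMM or DESeq2 scaling, 4 of these 37 counted genes were more than 2-fold higher and 5 lower, where CPM gave 1 and 8. The 4 were Birc5, Casp6, Bnip3l and Bcl2l14. Past 2-fold either way were 24.3% of the 37, against 28.5% of all counted genes with TMM and 28.2% with DESeq2 size factors. The count is therefore no result about these genes. Markers of other cells differed between the libraries. All 10 immature neutrophil markers and 7 of 9 mature markers were more than 2-fold higher in library 2, against 5.74% of counted genes. The other mature markers were Csf3r and Stfa2l1. Basophil and mast cell markers had 2 counts in library 1, with 4 of 5 genes at 0, and 6881 counts in library 2. Of 6 border macrophage markers, 3 were more than 2-fold lower, against 25.9% of counted genes. B cell markers were at 570 and 778 CPM, T and NK cell markers had 3 and 132 counts, with Cd3e and Cd8a at 0 in both, and erythroid markers had 5 and 606 counts. Apart from the border macrophage list, these lists were higher in library 2. Neuron, glia and vessel markers were at 22.8 and 34.6 CPM. The 18 early response genes, which tissue dissociation can induce, were at 20229 and 24094 CPM in sum. Of these 18, 2 (Fos and Dusp1) were more than 2-fold higher, against 5.74% of counted genes. Another 4 (Jund, Klf2, Nr4a1 and Fosb) were more than 2-fold lower, against 25.9% of counted genes. The part of these marker and early response genes in the levels of the BCL2 family was not tested.

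**Figure D5:**
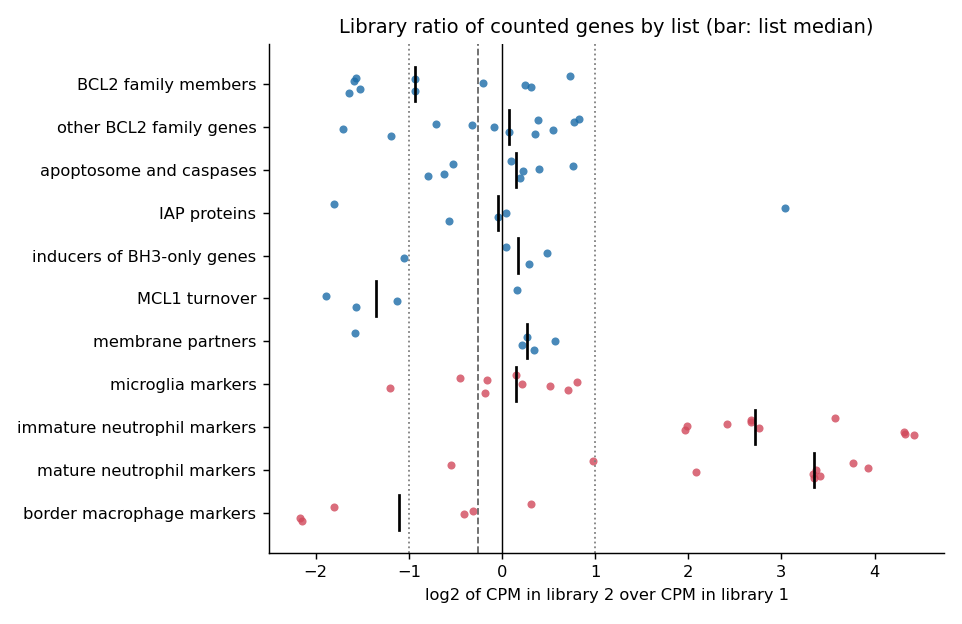
log2 of CPM in library 2 over CPM in library 1 for the counted genes of the BCL2 family, the pathway lists (blue) and 4 marker lists (red), with a bar at each list's median; the dashed line is the median of all counted genes at −0.26 and the dotted lines mark 2-fold. All neutrophil markers but Csf3r and Stfa2l1 lie beyond 2-fold on the right, Birc5 stands alone among the inhibitors of apoptosis at 3.04, and the apoptosome and caspase genes lie within 2-fold by CPM, though Casp6, at 0.77, passes it under TMM and DESeq2 scaling and after adjustment for GC content and length.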

How the data were processed

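Sorted microglia of 2 sham-operated mice were analysed by bulk RNA-seq. Per the study's methods, SMART-Seq HT cDNA, which comes from polyadenylated RNA and carries no strand mark, was tagmented with Nextera XT and read in pairs of 75 bases. The authors checked reads with FastQC, aligned them to GRCm38 (HISAT2) and ran HTSeq, and the deposited files hold its raw counts for each Ensembl gene, with no normalization. Tool versions, annotation release, overlap mode and strand setting are not given in the sources used here. Reads of overlapping genes on opposite strands could thus not be told apart.

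Symbols came from GENCODE M21 (GRCm38) for 53706 of 53801 identifiers. Starts are given from 1. CPM was the count over the library's total times 1000000, and levels per kilobase used merged exon length. The ratio between libraries had an exact binomial 95% interval, and a gene was counted with at least 10 counts in both libraries. The biological coefficient of variation came from edgeR 4.0.16 with an intercept only. Alternatives were TMM, DESeq2 1.42.0 size factors, and totals without mitochondrial or neutrophil marker genes. Folds of 1.5, other filters, other lengths and each library alone were also alternatives. An adjustment by 10 bins each of GC content and length was added after seeing the data. A balance with full counts set over exon bases of a single gene was added then too. The scripts were tested on simulated data. Other software was Python 3.11.15 with pandas 2.3.3, scipy 1.17.1, numpy 2.4.6 and matplotlib 3.10.9, and R 4.3.3.

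The family genes and all lists were chosen with earlier results of these data known. Beside the 10 genes, the text names every other family gene listed, and in each pathway list the 2 genes of highest mean level per kilobase and the one of largest ratio. Other genes named were chosen after their values were seen. One gene of the microglia marker list is not reported here and was left out of its sum.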

Additional observations from a re-analysis of the deposited data

How the results depend on the processing

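With 2 mice, every mean rests on both libraries, and each SD has a single degree of freedom. Left out in turn, the libraries gave a balance of 1.88 to 2.49. The mean balance of 2.19 became 2.83 without length scaling, 1.18 with all family genes, 1.56 without the Bcl2a1 genes and 1.43 without Mcl1. It was 2.12 with the longest transcript. With full counts set over exon bases of a single gene only, it was 2.38. At a fold of 1.5, 7 members, 15 of the 37 other family and pathway genes and 6834 of all counted genes were past it. With any count in both libraries allowed, 7293 genes were past 2-fold. After adjustment for GC content and length, 4 of the 37 and 3 members were, against 22.4% of all counted genes. The 3 members were all lower, as were 1705 of the 13439 counted genes. TMM gave 1180 counted genes more than 2-fold higher and 2644 lower, and DESeq2 size factors gave 1240 and 2553, where CPM gave 772 and 3483. With DESeq2 size factors Pmaip1 reached a log2 ratio of 1.00, which is 2-fold but not past it, and the count stayed at 4 members. The biological coefficient of variation was 0.550 without the filter on low counts and 0.470 from the median dispersion of DESeq2. No paired analysis was possible because the samples form 1 group. Precision for Bak1, with 46 and 27 counts, is limited by depth, and that of the A1 copies by shared sequence.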
